A study of Mus musculus with 18 samples.

Results

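The transcripts of 10 elastic fibre genes, *Eln*, *Fbn1*, *Fbln1*, *Fbln2*, *Fbln5*, *Mfap4*, *Mfap5*, *Ltbp4*, *Lox* and *Loxl1*, were examined in sorted mouse lung and tracheal cells. They were found by symbol among the 27179 genes counted, and all 10 passed the filter on low counts. RNA from 18 libraries was sequenced, 3 from each of 6 populations of untreated C57BL/6 mice, which the methods give as young adult males and the study calls wild type. BSCs (basal stem cells, NGFR-positive) and tracheal non-basal cells (NGFR-negative) came from the tracheas of mice 1 to 3, whose epithelium was peeled off after dispase digestion. Airway CD24hi cells (EpCAM-positive, CD104-positive, labelled as enriched in ciliated cells), airway CD24lo cells (the same gate with low CD24, labelled as enriched in club cells), alveolar cells (EpCAM-positive, CD104-low) and EpCAM-negative cells were sorted from the lungs of mice 4 to 6, which had been minced and digested in collagenase. By this numbering no mouse gave cells of both organs. The study itself, however, compared BSCs and alveolar cells of 3 wild-type mice with a paired test.

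Elastic fibres let the lung recoil after each breath. Secreted tropoelastin, the product of *Eln*, gathers into globules, is carried to a scaffold of fibrillin microfibrils by fibulins and latent TGF-β binding proteins, and is joined into an insoluble polymer by lysyl oxidases. In the lung this matrix is known as a product of fibroblasts, myofibroblasts and smooth muscle cells, and much of the elastin is laid down while the alveoli form.

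The libraries held 29317215 to 32993621 counted reads in trachea and 9811503 to 13208897 in lung. The marker genes followed the labels: *Krt5*, a basal cell keratin, had a mean of 1538 RPKM (reads scaled by gene length and by library size) in BSCs, *Foxj1*, a regulator of cilia, 625.7 RPKM in airway CD24hi cells, *Scgb1a1*, a club cell secretory protein, 598600 RPKM in airway CD24lo cells and *Sftpc*, a surfactant protein, 156200 RPKM in alveolar cells. In EpCAM-negative cells *Epcam* was at 1.76 RPKM and *Cdh1* at 2.73 RPKM, although *Scgb1a1* was counted there at 2148 RPKM and *Sftpc* at 635.7 RPKM. A list of 9 fibroblast markers summed to 10500 to 11300 RPKM per library in EpCAM-negative cells, and a list of 9 smooth muscle and pericyte markers to 1770 to 1900 RPKM.

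EpCAM-negative cells held the highest level of every member. *Mfap4* (mm10, chr11:61485431-61488708), which encodes a microfibril-associated glycoprotein, led with 1380, 1390 and 1500 RPKM in the 3 libraries. *Eln* (chr5:134702595-134747368) followed with 876, 923 and 931 RPKM, and *Ltbp4*, which encodes a latent TGF-β binding protein that guides elastin assembly, with 841, 877 and 907 RPKM. *Mfap4* lay above the other 2 in every library, while *Eln* and *Ltbp4* overlapped. Together the 3 genes made up most of the elastic fibre transcripts: of the summed RPKM of the 10 members (4526 ± 132, SD, n = 3), *Mfap4* held 31.5%, *Eln* 20.1% and *Ltbp4* 19.3%.

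The other members were also measured with little spread. *Fbln1*, the fibulin found in many basement membranes and elastic fibres, was at 387 ± 9.70 RPKM (SD, n = 3), *Loxl1*, a cross-linking oxidase that binds elastin, at 295 ± 2.72 and *Mfap5*, a second microfibril-associated glycoprotein, at 250 ± 6.17. *Fbn1*, the fibrillin that builds the microfibrils of adult tissue, was at 149 ± 5.63 RPKM, *Lox*, the founding lysyl oxidase, at 98.8 ± 11.9, *Fbln2* at 88.8 ± 7.64 and *Fbln5*, which tethers tropoelastin to microfibrils and to integrins, at 48.7 ± 4.10. The highest of the 3 EpCAM-negative libraries exceeded the lowest by between 1.02-fold and 1.27-fold for the 10 members.

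**Figure D1:**
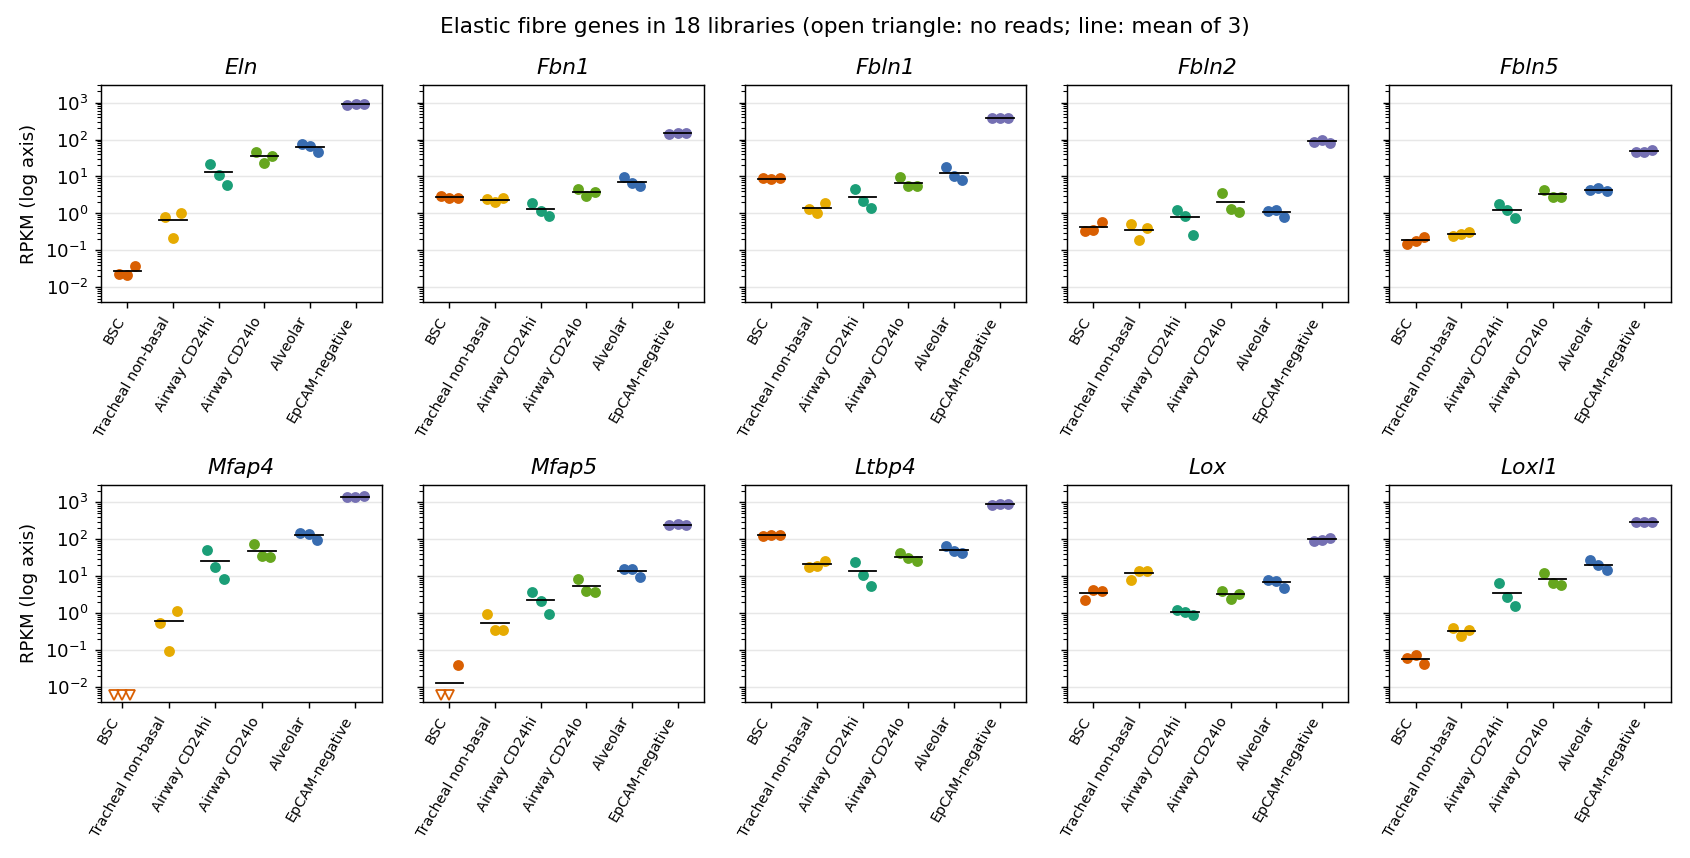
Level of each elastic fibre gene in RPKM, on a log axis, in the 18 libraries grouped by cell population; each point is a library, each black line the mean of 3, and an open triangle a library with no reads. EpCAM-negative cells were highest for all 10 genes, and BSCs ran from 0 reads for Mfap4 to 125 to 134 RPKM for Ltbp4.

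EpCAM-negative cells were compared with each EpCAM-positive lung population of the same mice, and these comparisons share the EpCAM-negative libraries. All 10 members were higher in EpCAM-negative than in alveolar cells, where 32.7% of the 17989 genes tested rose and 29.2% fell. The members had a median of 3.97 on the log2 scale, and all genes tested 0.01. All 10 were likewise higher than in airway CD24lo cells, with a median of 5.04 (32.1% of genes higher, 31.4% lower, median 0), and higher than in airway CD24hi cells, with a median of 6.44 (36.7% higher, 35.6% lower, median 0.04).

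The size of the difference from alveolar cells varied between members. *Fbln2* differed most, with a mean of 88.8 RPKM against 1.08 RPKM and a log2 fold change of 6.35 (SE 0.43, adjusted p = 5.17e-10). *Fbln1* followed, with a log2 fold change of 4.98 (SE 0.37, adjusted p = 1.6e-09). *Fbln5* and *Mfap4* differed least, by 3.47 (SE 0.22, adjusted p = 1.61e-10) and 3.49 (SE 0.55, adjusted p = 4.38e-05), which are folds of 11.1 and 11.2. The fibulins thus stood at both ends of the range. *Eln* lay between them, 14.6-fold higher in EpCAM-negative than in alveolar cells (log2 fold change 3.87, SE 0.43, adjusted p = 3.82e-07).

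The same order was not kept against the airway populations. Against airway CD24lo cells *Fbln1* differed most, with a log2 fold change of 5.82 (SE 0.39, adjusted p = 3.79e-10), and *Fbln5* least, with 3.86 (SE 0.22, adjusted p = 5.73e-11). Against airway CD24hi cells *Fbln1* again differed most, with 7.15 (SE 0.41, adjusted p = 3.42e-11), and *Fbln5* least, with 5.28 (SE 0.24, adjusted p = 1.57e-12). The airway CD24hi library of mouse 4 held more of every member than the other 2 of its population, and without it the log2 fold change rose to 7.74 for *Fbln1*, 6.73 for *Eln*, 6.77 for *Mfap4*, 6.75 for *Ltbp4* and 7.08 for *Loxl1*. Without the airway CD24lo library of mouse 4, that of *Fbln2* rose from 5.46 to 6.16. This exceeds the 6.14 that *Fbln1* reached at most with any single library left out. Whether *Fbln1* or *Fbln2* differed most from airway CD24lo cells thus depended on this library.

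Among the EpCAM-positive lung populations the members were graded, with alveolar cells above airway CD24lo cells and these above airway CD24hi cells in mean level for every member but *Fbln2*. *Eln* was at 74.7, 65.7 and 46.2 RPKM in the alveolar libraries of mice 4, 5 and 6. It was at 47.2, 23.8 and 36.5 RPKM in airway CD24lo cells and at 22.3, 11.1 and 5.99 RPKM in airway CD24hi cells. Alveolar and airway CD24lo libraries overlapped, whereas each airway CD24hi library lay below all of both. *Mfap4* was at 146, 140 and 96.1 RPKM in alveolar cells, at 74.7, 34.7 and 32.6 RPKM in airway CD24lo cells and at 50.1, 17.9 and 8.21 RPKM in airway CD24hi cells. Here the airway populations overlapped and the alveolar libraries lay above both.

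Of the 10 members, 9 were lower and none was higher in airway CD24hi than in airway CD24lo cells, where 27.8% of genes were higher and 27.2% lower. On the log2 scale the median difference was -1.33 over the members and -0.06 over all genes tested. *Fbn1* showed the smallest adjusted p, with a log2 fold change of -1.55 (SE 0.24, adjusted p = 3.42e-05), and *Lox* the largest fold, 3.02 (log2 fold change -1.6, SE 0.32, adjusted p = 0.000329). *Eln* was 2.73-fold lower (log2 fold change -1.45, SE 0.4, adjusted p = 0.00523). The exception was *Mfap4*, with a log2 fold change of -0.9 (SE 0.52, adjusted p = 0.159). With the mouse as a replicate block, *Mfap4* passed the threshold at -1.02 (adjusted p = 0.0346).

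Single libraries moved several of these values. Without the airway CD24hi library of mouse 4 all 10 members were called, with log2 fold changes of -1.86 for *Mfap4* (adjusted p = 0.00273), -2.06 for *Eln*, -1.93 for *Fbln1*, -1.83 for *Mfap5*, -2.05 for *Ltbp4* and -1.93 for *Loxl1*. Without the airway CD24lo library of mouse 4 *Fbln2*, *Mfap5* and *Loxl1* were no longer called, at -0.638, -0.726 and -0.758 (adjusted p = 0.241, 0.175 and 0.0976). *Mfap5* and *Loxl1* were also lost without the airway CD24hi library of mouse 5, at adjusted p = 0.054 and 0.0508, and *Fbln2* and *Mfap5* without that of mouse 6, at adjusted p = 0.0749 and 0.0785. The calls of *Eln*, *Fbn1*, *Fbln1*, *Fbln5*, *Ltbp4* and *Lox* held without any single library.

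Between airway CD24lo and alveolar cells 6 members were lower in the airway cells and none was higher, where 24.2% of genes were higher and 24.2% lower. The median difference was -0.89 over the members and 0.03 over all genes tested. *Fbn1* (-0.94, SE 0.23, adjusted p = 0.00261) and *Lox* (-1.07, SE 0.27, adjusted p = 0.00333) were called, as were *Mfap5* (-1.35, SE 0.36, adjusted p = 0.00444) and *Loxl1* (-1.32, SE 0.35, adjusted p = 0.00497). *Mfap4* (-1.42, adjusted p = 0.0333) and *Fbln1* (-0.84, adjusted p = 0.047) passed as well, but neither call was stable. Both were lost when the airway CD24lo library of mouse 5 or 6 or the alveolar library of mouse 4 or 5 was left out, with adjusted p between 0.0748 and 0.118 for *Mfap4* and between 0.052 and 0.31 for *Fbln1*.

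*Eln* did not pass in that comparison, with a log2 fold change of -0.8 (SE 0.39, adjusted p = 0.104), but did with the mouse as a replicate block, at -0.801 (adjusted p = 0.0297). It also passed with limma voom (adjusted p = 0.0438) and when only the 6 libraries compared were fitted (adjusted p = 0.0263). *Ltbp4* (-0.63, SE 0.34, adjusted p = 0.142) did not pass, but did at -0.616 (adjusted p = 0.0315) when only those 6 libraries were fitted. *Fbln5* did not pass either (-0.39, SE 0.22, adjusted p = 0.147), but did at -0.66 (adjusted p = 0.0177) without the airway CD24lo library of mouse 4. *Fbln2* had the opposite sign, at 3.48, 1.36 and 1.11 RPKM in airway CD24lo and 1.16, 1.27 and 0.812 RPKM in alveolar cells (log2 fold change 0.89, SE 0.44, adjusted p = 0.111). The populations overlapped for *Fbln2*, and without the airway CD24lo library of mouse 6 it passed at 1.17 (adjusted p = 0.0463).

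Airway CD24hi cells were set against the same alveolar libraries. Of the 10 members, 9 were lower in airway CD24hi cells and none was higher, where 30.5% of genes were higher and 31.4% lower. The median difference was -2.28 over the members and -0.01 over all genes tested. *Lox* (-2.67, SE 0.3, adjusted p = 4.34e-07) and *Mfap5* (-2.6, SE 0.39, adjusted p = 1.27e-05) differed most. *Fbln2* was not called (-0.45, SE 0.48, adjusted p = 0.437). Without the airway CD24hi library of mouse 4 the log2 fold change was further from 0 for *Eln* (-2.86), *Fbln1* (-2.77), *Mfap4* (-3.28), *Ltbp4* (-2.69) and *Loxl1* (-3.25), which stayed called.

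**Figure D2:**
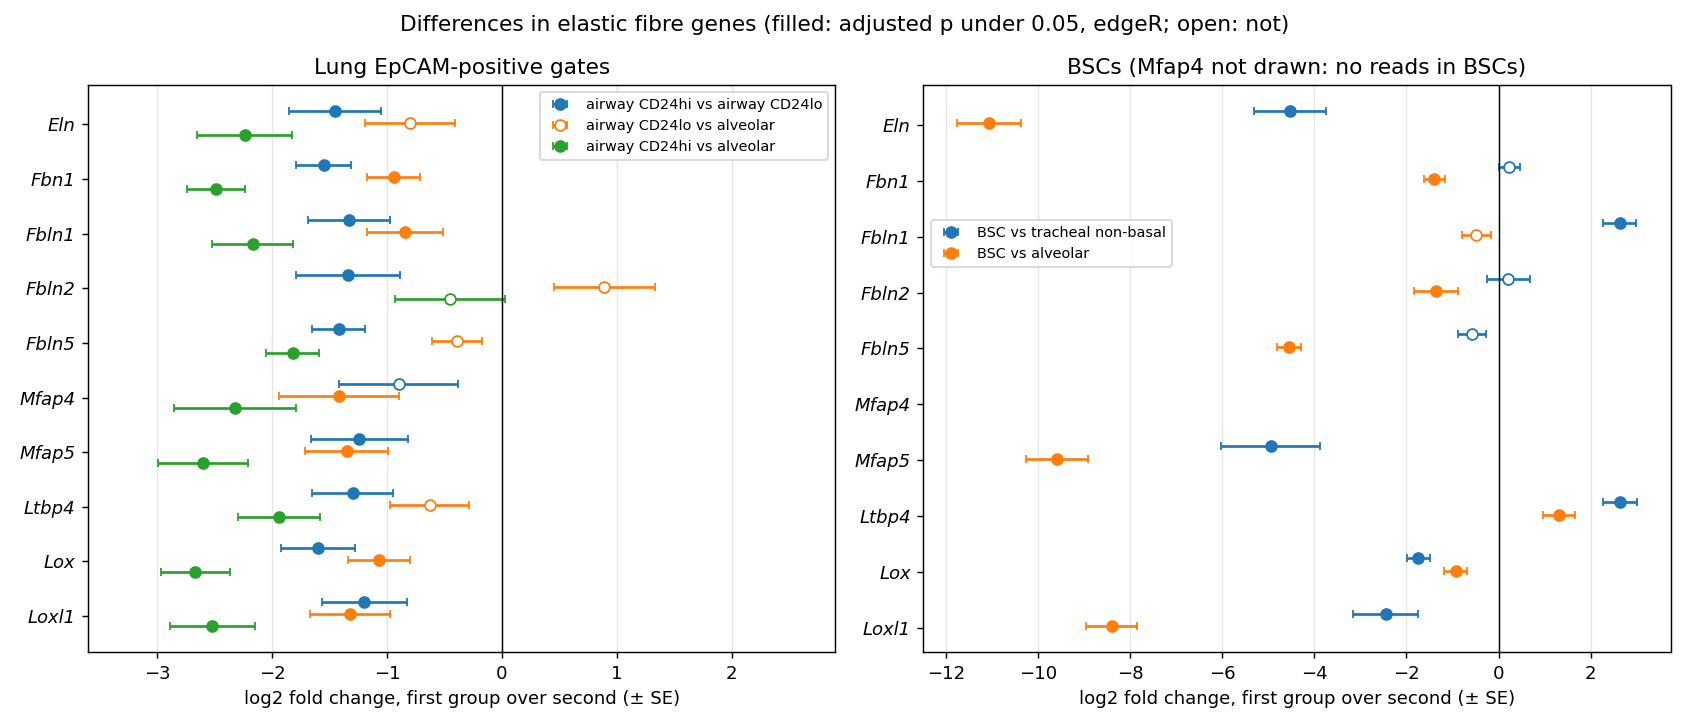
Log2 fold change of each elastic fibre gene (first population over second, ± SE) among the EpCAM-positive lung populations, left, and for BSCs, right; filled points passed an adjusted p of 0.05 in edgeR's test. Every point on the left lies below 0 apart from Fbln2 in airway CD24lo against alveolar cells, whereas on the right Ltbp4 lies above 0 in both comparisons and Eln, Mfap5 and Loxl1 below it in both.

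The median level of the members in EpCAM-positive lung libraries moved with the median of the fibroblast markers, though not with every marker. Expressed as a percentage of the mean RPKM in EpCAM-negative cells, the median member stood at 7.83%, 6.56% and 4.92% in the alveolar libraries of mice 4, 5 and 6. The median of the 9 fibroblast markers in the same libraries was 4.99%, 3.9% and 2.94%, so mouse 4 stood highest and mouse 6 lowest in both. In airway CD24lo cells the medians were 4.1%, 2.32% and 2.42% for the members and 2.38%, 1.23% and 1.49% for the fibroblast markers, and in airway CD24hi cells 1.86%, 1.01% and 0.568% against 1.15%, 0.618% and 0.43%. Single markers departed from this. *Lum* stood at 0.342%, 0.565% and 0.555% in the alveolar libraries of mice 4, 5 and 6, so mouse 4 was lowest. Unlike the other listed fibroblast markers, *Lum* and *Pi16* had lower means in alveolar (0.487% and 0.465%) than in airway CD24lo cells (0.708% and 1.07%). The library of mouse 4 was the highest for 10 of 10 members in both airway populations and for 8 of 10 in alveolar cells, and that of mouse 6 the lowest for 10 of 10 in airway CD24hi and in alveolar cells.

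The summed level of the 9 fibroblast markers was 517 to 928 RPKM in alveolar, 151 to 400 RPKM in airway CD24lo and 60.5 to 247 RPKM in airway CD24hi cells, and none of the 9 was without reads in these populations. That of 9 smooth muscle and pericyte markers was 54.3 to 80.8, 84.2 to 178 and 22 to 58.6 RPKM, and as medians relative to EpCAM-negative cells these markers stood higher in airway CD24lo libraries (10.3%, 4.52% and 7.98%) than in alveolar ones (3.19%, 4.38% and 3.06%). The methods give alveolar cells as negative for CD45 and CD31, which mark immune and endothelial cells. The 7 endothelial markers summed to 74.7 to 135 RPKM in alveolar, 156 to 398 RPKM in airway CD24lo, 80.2 to 313 RPKM in airway CD24hi and 208 to 365 RPKM in EpCAM-negative cells, the 7 immune markers to at most 34.8 RPKM in any library and the 5 chondrocyte markers to at most 6.01 RPKM. A list of 5 mesothelial markers, of which *Msln* and *Krt19* are also known from epithelium, summed to 25 to 44.9 RPKM in EpCAM-negative and 48.4 to 59.4 RPKM in alveolar cells. The sum was higher in airway CD24hi (377 to 504 RPKM) and airway CD24lo cells (441 to 507 RPKM). It was highest in BSCs (1130 to 1290 RPKM) and tracheal non-basal cells (2420 to 2680 RPKM). The part of these other cells in the members' levels was not tested. In bulk samples, fewer cells of a type and less RNA per cell cannot be told apart.

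Single members differed in how much of the EpCAM-negative level alveolar cells held. *Fbln5* stood at 9.03% and *Mfap4* at 8.93%, *Lox* at 6.87%, *Eln* at 6.84%, *Fbln1* at 3.16% and *Fbln2* at 1.22%. As means of the same 3 libraries the fibroblast markers spanned a wider range, from 0.465% for *Pi16* and 0.487% for *Lum* to 9.3% for *Inmt*. In airway CD24hi cells the members ran from 0.703% for *Fbln1* to 2.56% for *Fbln5*, and the spread between libraries was wide, with a median ratio of 3.86 between the highest and the lowest of the 3 libraries, against 1.63 in alveolar and 1.85 in airway CD24lo cells.

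**Figure D3:**
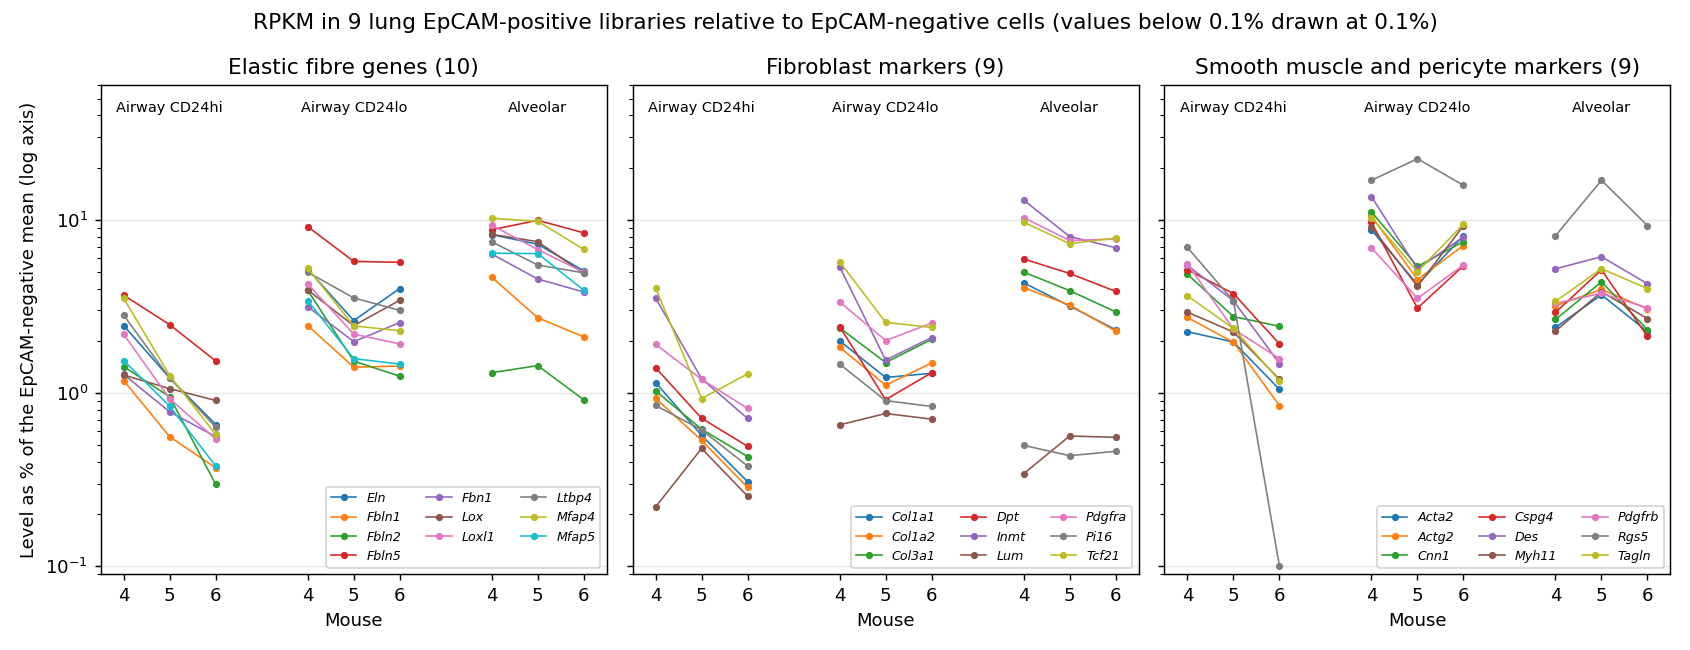
Level of each gene in the 9 EpCAM-positive lung libraries as a percentage of its mean in EpCAM-negative cells, on a log axis, by population and mouse, for the 10 elastic fibre genes, 9 fibroblast markers and 9 smooth muscle and pericyte markers. The library of mouse 4 stands above that of mouse 6 for every member in each population, and the members' medians run from 0.568% to 7.83%.

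The tracheal populations held a different make-up of elastic fibre transcripts. In BSCs the 10 members summed to 145 ± 5.45 RPKM (SD, n = 3), and *Ltbp4* alone made up 89.1% of this sum. In tracheal non-basal cells the sum was 39.3 ± 7.70 RPKM, with 52.9% from *Ltbp4* and 30.2% from *Lox*. In the 4 lung populations *Ltbp4* made up between 17.1% and 23.0% of the sum on average and *Lox* between 2.17% and 2.24%, while *Eln* and *Mfap4* together held most of the rest. These shares were not tested against each other.

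**Figure D4:**
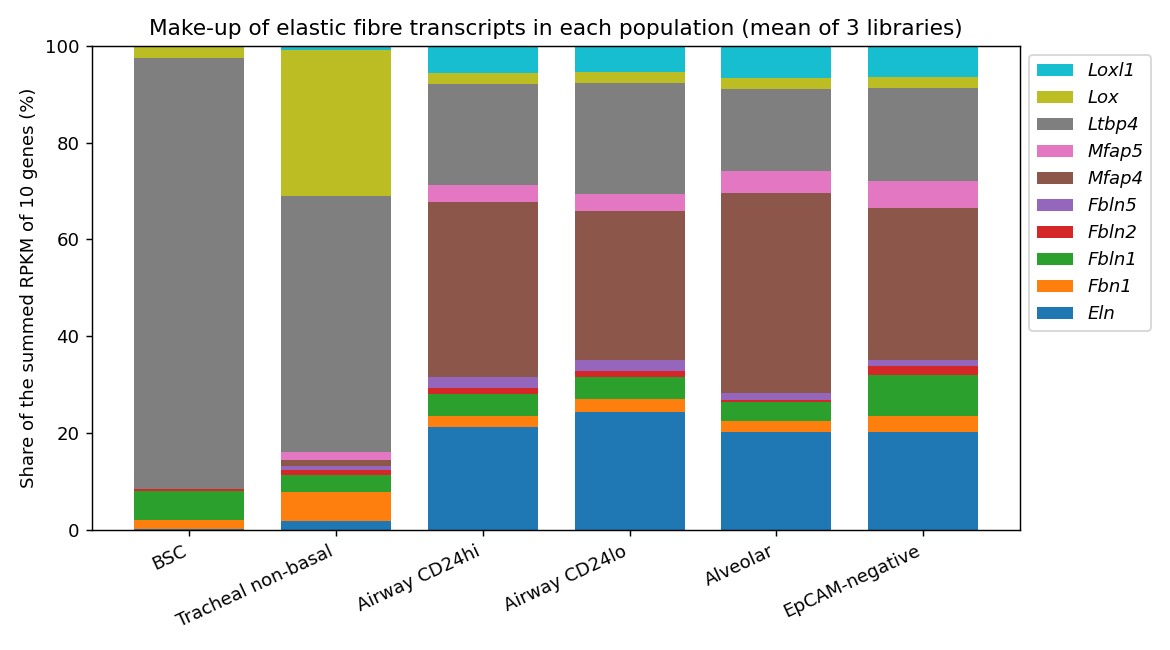
Share of each gene in the summed RPKM of the 10 elastic fibre genes, in percent, as the mean of 3 libraries per population. Ltbp4 fills 89.1% of the bar of BSCs, Lox takes 30.2% in tracheal non-basal cells, and the 4 lung populations are led by Mfap4, at 30.8% to 41.4%.

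BSCs were compared with the NGFR-negative cells of the same tracheas. Of the 10 members, 2 were higher in BSCs (21.9% of genes were higher) and 5 lower (26.2% lower). Over the members the median log2 difference was -1.16, and over all genes tested it was -0.02. *Ltbp4* was at 125, 128 and 134 RPKM in BSCs and at 18, 18.7 and 25.7 RPKM in tracheal non-basal cells, a log2 fold change of 2.64 (SE 0.36, adjusted p = 1.07e-05). *Fbln1* was at 8.95, 8.4 and 9.09 RPKM in BSCs and at 1.32, 1 and 1.92 RPKM in tracheal non-basal cells, a log2 fold change of 2.63 (SE 0.35, adjusted p = 7.16e-06). For both genes every BSC library lay above every non-basal library, and both folds were 6.21.

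*Eln*, *Mfap4*, *Mfap5* and *Loxl1* were close to the limit of counting in BSCs. *Eln* had 3, 3 and 5 reads in the 3 BSC libraries and 87, 23 and 117 in tracheal non-basal cells, a ratio of levels of 24.9 (95% counting interval 13.6 to 50.6). *Mfap4* had 0 reads in each BSC library, which allows at most 0.0548 to 0.0564 RPKM, and 24, 4 and 54 reads in non-basal cells, at least 10.7-fold higher at a floor of 3 reads per library. *Mfap5* had 0, 0 and 2 reads against 40, 14 and 15, a ratio of 41.6 (11.1 to 350), and *Loxl1* 7, 9 and 5 reads against 39, 23 and 36, a ratio of 5.63 (3.49 to 9.5). These intervals cover counting error only. All 4 were lower in BSCs by edgeR's test (adjusted p = 0.000116 for *Eln*, 0.00944 for *Mfap4*, 0.00102 for *Mfap5* and 0.00838 for *Loxl1*), but with limma voom *Mfap4* (adjusted p = 0.0643) and *Loxl1* (adjusted p = 0.0511) were not. For *Mfap5*, whose only BSC reads lay in the library of mouse 3, the fitted log2 fold change moved from -4.95 to -6.79 without that library, and to -4.27 without the non-basal library of mouse 1. For *Mfap4* it moved from -7.1 to -6.13 without the non-basal library of mouse 3, and these fitted values depend on the prior count.

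Among the epithelial populations, *Lox* was the only member with its highest mean in tracheal non-basal cells. It was at 8, 13.5 and 14.2 RPKM there and at 2.33, 4.29 and 4.07 RPKM in BSCs, with no overlap and a log2 fold change of -1.74 (SE 0.25, adjusted p = 1.38e-05). Of the other epithelial libraries only the alveolar library of mouse 4, at 8.14 RPKM, reached into the non-basal range, and the other alveolar libraries were at 7.38 and 4.85 RPKM. The remaining 3 members did not pass between the tracheal populations. *Fbn1* was at 3, 2.61 and 2.7 RPKM in BSCs and at 2.5, 2.01 and 2.56 RPKM in non-basal cells (log2 fold change 0.23, SE 0.23, adjusted p = 0.424), though it passed at 0.58 (adjusted p = 0.0439) when libraries were scaled by size alone, a setting under which the median of all genes was 0.31. *Fbln5* was at 0.151, 0.18 and 0.228 RPKM in BSCs and 0.24, 0.277 and 0.318 RPKM in non-basal cells, with no overlap (-0.58, SE 0.3, adjusted p = 0.127), and it passed at -0.585 (adjusted p = 0.0444) when only the 6 tracheal libraries were fitted. *Fbln2* was at 0.337, 0.352 and 0.58 RPKM in BSCs and 0.51, 0.188 and 0.393 RPKM in non-basal cells (0.21, SE 0.47, adjusted p = 0.743).

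Fibroblast markers were nearly absent from BSCs. The 9 markers summed to 0.13 to 0.179 RPKM per BSC library, with no reads for *Tcf21* and *Pi16*, and to 4.41 to 16.4 RPKM in tracheal non-basal cells. As a median over the list this was at most 0.00268% of the EpCAM-negative level in BSCs, where *Ltbp4* stood at 14.8%, *Lox* at 3.61%, *Fbln1* at 2.28% and *Fbn1* at 1.86%, but *Eln* at 0.003%. The 9 smooth muscle and pericyte markers summed to 3.08 to 3.97 RPKM, with a median of at most 0.0557% of the EpCAM-negative level, although *Cspg4* stood at 5.27% to 7.45% and *Rgs5* at 1.27% to 1.3%, and the 7 endothelial markers to 0.475 to 0.542 RPKM in BSCs. *Ltbp4*, *Fbln1*, *Fbn1* and *Lox* were counted in BSC libraries in which *Eln*, *Mfap4* and the 9 listed fibroblast markers were at or near 0. The source of the transcripts in BSCs was not tested, and the EpCAM-negative reference comes from lung, not trachea.

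BSCs were also compared with alveolar cells, a comparison that shares the BSC libraries with the preceding one and the alveolar libraries with those above. In it cell type, organ, depth and, as the mice are numbered here, animal cannot be told apart. In BSCs 1 member was higher and 8 were lower, where 30.5% of genes were higher and 35.6% lower. Over the members the median log2 difference was -2.98, and over all genes tested it was -0.09. The higher member was *Ltbp4*, whose alveolar libraries held 65.3, 48 and 43.2 RPKM, all below the BSC libraries (log2 fold change 1.31, SE 0.35, adjusted p = 0.00309). *Fbln1* was not called (-0.48, SE 0.32, adjusted p = 0.202), and its alveolar libraries, at 18, 10.5 and 8.14 RPKM, overlapped the BSC ones.

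The lower members differed widely in the size of the difference, and *Eln*, *Mfap4*, *Mfap5* and *Loxl1* had few or no BSC reads. The ratio of the alveolar to the BSC level was 2310 for *Eln* (95% counting interval 1290 to 4620), 1060 for *Mfap5* (293 to 8790) and 355 for *Loxl1* (232 to 575), and *Mfap4* was at least 2280-fold higher in alveolar cells. *Fbln5* was 23.4-fold lower in BSCs (log2 fold change -4.55, SE 0.26, adjusted p = 5.3e-11). The differences were far smaller for *Fbn1* (-1.4, SE 0.23, adjusted p = 3.45e-05), *Fbln2* (-1.36, SE 0.47, adjusted p = 0.0162) and *Lox* (-0.93, SE 0.25, adjusted p = 0.0035). *Fbln2* was low in both populations, with means of 0.423 RPKM in BSCs and 1.08 RPKM in alveolar cells. *Fbln2* did not pass without the BSC library of mouse 1 (-1.22, adjusted p = 0.0509) or the alveolar library of mouse 5 (-1.23, adjusted p = 0.0629), and with scaling by library size alone, where the median of all genes was 0.29, neither *Fbln2* (-0.958, adjusted p = 0.0883) nor *Lox* (-0.533, adjusted p = 0.0767) passed. The fitted value of *Mfap5* moved from -9.6 to -11.4 without the BSC library of mouse 3.

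The members also differed in the sequence before their start sites. RefSeq windows were examined for 5 of the 10 members. *Eln*, *Mfap4*, *Mfap5*, *Lox* and *Loxl1* were not among them. The 250 bases before a start are given for *Ltbp4* and *Fbln1*, the members higher in BSCs than in non-basal cells, and for *Fbln5*, which was low in both, from windows that held no annotated exon (GRCm38.p6, the build of mm10, written 5′ to 3′ on the strand of the gene). *Ltbp4* lies at chr7:27305140-27339720 on the minus strand and its window at chr7:27333664-27333913. *Fbln1* lies at chr15:85205949-85286294 on the plus strand and its window at chr15:85205699-85205948, and *Fbln5* at chr12:101746565-101819119 on the minus strand with its window at chr12:101819120-101819369. Capitals mark the GC box, GGGCGG, and the motif CAGAC, each searched on both strands with overlapping matches counted apart.
Ltbp4: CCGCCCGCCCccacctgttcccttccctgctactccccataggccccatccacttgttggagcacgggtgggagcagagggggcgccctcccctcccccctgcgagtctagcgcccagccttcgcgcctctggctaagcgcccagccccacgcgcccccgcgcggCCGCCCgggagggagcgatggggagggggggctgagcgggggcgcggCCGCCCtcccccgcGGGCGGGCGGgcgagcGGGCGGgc
Fbln1: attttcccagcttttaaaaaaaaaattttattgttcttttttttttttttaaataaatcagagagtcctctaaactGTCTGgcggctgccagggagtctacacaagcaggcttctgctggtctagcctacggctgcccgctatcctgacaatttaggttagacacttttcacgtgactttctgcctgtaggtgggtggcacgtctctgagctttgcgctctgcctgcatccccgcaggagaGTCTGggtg
Fbln5: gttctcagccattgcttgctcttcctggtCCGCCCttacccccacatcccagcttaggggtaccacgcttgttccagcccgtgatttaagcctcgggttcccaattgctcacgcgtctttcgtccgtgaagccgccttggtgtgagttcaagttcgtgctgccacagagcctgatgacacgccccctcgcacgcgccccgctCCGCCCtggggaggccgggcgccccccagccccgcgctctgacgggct

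The *Ltbp4* window held 7 matches to the GC box, some of them overlapping, and the *Fbln5* window 2, while that of *Fbln1* held 2 matches to CAGAC and none to the GC box. Over the 32851 windows of the same length that were available before annotated starts, 32.7% held a GC box and 42.2% held CAGAC. None of the 3 windows held the TATA box, TATAAA, which 12.4% of all windows held. *Ltbp4* also had 28 CG steps in its window, *Fbln5* 21 and *Fbln1* 7, against a median of 6 over all windows. All 3 genes have other annotated starts. Further *Ltbp4* windows held 3 and 5 matches to the GC box and 15 and 29 CG steps, so the printed one held the most GC boxes. The window with 5 matches, at chr7:27333649-27333898, overlaps most of the printed one. The printed *Ltbp4* window lies within the annotated gene, whereas those of *Fbln1* and *Fbln5* directly precede theirs. The second *Fbln1* window held 1 GC box and 14 CG steps. The second *Fbln5* window held no GC box, 2 matches to CAGAC and 6 CG steps. The contrast between the printed windows thus depends on the start. The counts per gene do not show which start was used.

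Other genes of the pathway were counted in 4 lists. Of 17 further genes of elastic fibre assembly, 6 were higher in BSCs than in the non-basal cells and 5 were lower (median log2 difference -0.07), against 21.9% and 26.2% of all genes. *Dcn*, a small proteoglycan that binds collagen and microfibrils, was at 161 RPKM in BSCs and 31.9 RPKM in non-basal cells (log2 fold change 2.33, SE 0.15, adjusted p = 1.66e-09), and *Efemp1*, also known as fibulin-3, at 148 and 57.0 RPKM (1.37, SE 0.1, adjusted p = 5.1e-09). *Bgn*, the proteoglycan most similar to *Dcn*, was at 0.11 RPKM in BSCs and 1.18 RPKM in non-basal cells (-3.4, SE 0.63, adjusted p = 0.000223), so the 2 proteoglycans differed in opposite directions. Between BSCs and alveolar cells 3 of the 17 were higher and 13 lower, against 30.5% and 35.6% of all genes. The higher ones of the list were *Dcn* (3.07), *Efemp1* (1.35) and *Adamtsl4* (1.54), which encodes a fibrillin-binding protein.

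Of 7 further cross-linking genes, 3 were higher in BSCs than in non-basal cells (21.9% of all genes) and 2 lower, close to the 26.2% of all genes. *Loxl4*, a lysyl oxidase, was at 11.1 RPKM in BSCs and 1.70 RPKM in non-basal cells (log2 fold change 2.71, SE 0.19, adjusted p = 4.74e-09), *Pcolce*, which enhances procollagen processing, at 106.5 and 32.1 RPKM (1.73, SE 0.21, adjusted p = 2.52e-06) and *Bmp1*, a protease that activates pro-lysyl oxidase, at 11.7 and 3.34 RPKM (1.81, SE 0.16, adjusted p = 5.11e-08). The lower ones were *Loxl2* (-2.17, SE 0.64, adjusted p = 0.00934), another lysyl oxidase, at 0.0143 and 0.0699 RPKM, and *Tll1*, a protease related to *Bmp1* (-1.67, SE 0.16, adjusted p = 1.07e-07). Of the 5 lysyl oxidases, *Loxl4* was thus higher in BSCs, *Lox*, *Loxl1* and *Loxl2* were lower, and *Loxl3* was not called (-0.62, adjusted p = 0.0613). The mean of *Loxl4* was 11.1 ± 1.76 RPKM (SD, n = 3) in BSCs and 11.0 ± 0.720 RPKM in EpCAM-negative cells. Against alveolar cells *Loxl4* (4.4, SE 0.24, adjusted p = 2.4e-11) and *Pcolce* (1.65, SE 0.21, adjusted p = 2.3e-06) were higher in BSCs and *Bmp1* (-2.45, SE 0.16, adjusted p = 2.67e-10) and *Loxl2* (-6.02, SE 0.44, adjusted p = 1.28e-09) lower. In all, 3 of the 7 were higher and 4 lower, against 30.5% and 35.6% of all genes.

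Of 13 genes of latent TGF-β storage and activation, 7 were higher in BSCs than non-basal cells (21.9% of all genes) and 1 lower (26.2%). *Itgav* (0.88, adjusted p = 0.000463), *Itgb1* (0.9, adjusted p = 8.71e-07) and *Itgb5* (0.87, adjusted p = 9.28e-05), integrin chains that bind matrix and latent TGF-β, were among the higher ones, as was *Ltbp3* (0.55, adjusted p = 0.0018), a relative of *Ltbp4*. The lower gene was *Ltbp2*, another relative of *Ltbp4*, at 0.0326 RPKM in BSCs and 1.58 RPKM in non-basal cells (-5.55, SE 0.34, adjusted p = 8.29e-10). Against alveolar cells *Ltbp3* was lower in BSCs (-2.13, SE 0.13, adjusted p = 1.57e-10), opposite in sign to *Ltbp4*. In that comparison 4 of the 13 were higher and 6 lower, against 30.5% and 35.6% of all genes. The share that was higher was thus close to that of all genes.

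Of 13 genes of elastin breakdown and its inhibitors 11 were tested. BSCs held more than non-basal cells of 3 and less of 3, close to the 21.9% and 26.2% of all genes. *Ctsk*, an elastin-degrading cathepsin, was at 80.3 RPKM in airway CD24hi cells, 74.6 RPKM in EpCAM-negative cells, 10.3 RPKM in airway CD24lo cells and 2.88 RPKM in alveolar cells, and was higher in airway CD24hi than in airway CD24lo cells (2.96, SE 0.2, adjusted p = 2.05e-09) or alveolar cells (4.79, SE 0.23, adjusted p = 5.96e-12). *Ctsl*, another cathepsin, was at 197 RPKM in BSCs and 95.4 RPKM in non-basal cells (1.05, SE 0.09, adjusted p = 4.29e-08). *Slpi*, an inhibitor of elastases, was highest in alveolar cells, at 45.6 RPKM. The inhibitors *Timp2* and *Timp3* were highest in EpCAM-negative cells, at 834.5 and 908.5 RPKM.

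In EpCAM-negative cells the 4 lists leaned the same way as the members. Against alveolar cells 15 of 17 assembly genes, 5 of 7 cross-linking genes, 9 of 13 latent TGF-β genes and 10 of 11 breakdown genes were higher (32.7% of all genes), with median log2 fold changes of 3.48, 4.12, 2.73 and 2.47. The lower ones were *Fbn2*, a fibrillin of early development (-3.29, SE 0.39, adjusted p = 7.52e-07), *Itgb6*, an integrin chain of epithelium (-1.58, SE 0.22, adjusted p = 5.77e-06), *Slpi* (-2.73, SE 0.29, adjusted p = 1.81e-07) and *Thsd4*, a fibrillin-binding protein, at 21.8 RPKM in alveolar and 6.93 RPKM in EpCAM-negative cells (-1.65, SE 0.11, adjusted p = 2.6e-10). Between the airway populations, 8 of 17 assembly genes and 6 of 7 cross-linking genes were lower in airway CD24hi cells (27.2% of all genes). Higher there were 2 and 1 genes of these lists (27.8% of all genes), and 9 of 10 members were lower. In airway CD24lo against alveolar cells *Dcn* was higher (2.45, SE 0.16, adjusted p = 6.44e-10), at 104.3 against 19.1 RPKM, while 6 members were lower.

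The genes whose pattern over the 18 libraries was most like that of the members were sought among the 12109 other genes that averaged 5 CPM or more. By Pearson correlation with the median of the members' centred log2 CPM, *Mmp2*, a gelatinase that also cleaves elastin, came first (r = 0.995), followed by *Ccdc80*, *Lgals1*, *C1s1* and *Plxnc1* (each r = 0.993), *Ccn4*, *Hic1* and *Grk5* (each 0.992), *Zcchc24* (0.990) and *Col5a2* (0.989). The members themselves ranged from 0.978 for *Fbln5* and 0.971 for *Fbln2* to 0.729 for *Ltbp4* and 0.717 for *Lox*, the lowest of the 10. The 18 points fall into 6 populations, so these values describe the order of the populations.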

How the data were processed

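Single-end reads of 18 mouse libraries had been mapped by the authors (Rsubread, mm10) and summed for each Entrez gene by featureCounts over the RefSeq gene models shipped with that package. The deposited values are raw counts for 27179 genes with a gene length, without normalization; the submitters' notes also name bcl2fastq 1.8.4. Symbols came from NCBI's gene table (25275 identifiers matched). The members and the gene lists were chosen with earlier results of these data known.

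From the counts, a gene was tested if its CPM exceeded 0.2 in 3 or more libraries, which is the study's own filter (17989 genes, all 10 members). Counts were scaled by TMM and tested in R 4.3.3 with edgeR 4.0.16 (glmQLFit, glmQLFTest) in a fit of all 18 libraries with a mean for each of the 6 populations. The p-values, all two-sided, were adjusted by the Benjamini-Hochberg method over all genes tested, with a threshold of 0.05. RPKM used the TMM-scaled library size and the deposited length. A few-read ratio carries an exact 95% counting interval. Alternatives were DESeq2 1.42.0, voom in limma 3.58.1, scaling by RLE or by library size only, no filter or a minimum of 1 CPM, only the libraries compared, the mouse as a replicate block, and leaving out each library. The scripts were first tested on simulated data.

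Replicates are separate mice. Libraries of an organ with the same number share a mouse by the labels, and their deviations from group means had correlations of 0.12 to 0.34 in trachea and -0.06 to 0.28 in lung. Replicates differed beyond counting noise (chi-square per degree of freedom at least 3.67). Whether the counting used strand is not given in the sources used here: in GENCODE M21, 20.1% of the exonic bases of *Fbn1*, 4.63% of *Mfap4*, 3.3% of *Eln* and 0.628% of *Lox* also lie in an exon of a gene on the opposite strand. Named genes of the 4 pathway lists are the 3 highest of each by mean RPKM and those of at least 5 RPKM whose highest population was not EpCAM-negative; *Loxl3*, *Tll1*, *Ltbp2*, *Fbn2*, *Itgb6* and the cell markers lie outside this rule and were named after their values were seen.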

Additional observations from a re-analysis of the deposited data

How the results depend on the processing

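The number of members called stayed within 1.5 times that reported in all 8 comparisons under every alternative. Of the values of single members under an alternative, 1078 kept their direction and side of the threshold, 29 no longer passed, 11 newly passed and 2 changed sign. Both changes of sign were of *Fbln2* in BSCs against tracheal non-basal cells, a value of 0.21 that was not called: it was -0.0834 without the BSC library of mouse 3 and -0.0919 without the non-basal library of mouse 2, and ran from -0.0919 to 0.527 over the libraries left out. The cause was not tested. All 10 members stayed higher in EpCAM-negative cells than in each EpCAM-positive lung population under every alternative.

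With the mouse as a replicate block, *Mfap4* in airway CD24hi against airway CD24lo cells (-1.02) and *Eln* in airway CD24lo against alveolar cells (-0.801) were newly called and no other call changed. Between BSCs and alveolar cells, which as the mice are numbered here share only a replicate number, such a block left 9 members called. With limma voom 5 members were called between the tracheal populations in place of 7, and with only the 6 libraries compared 6 were called between the airway populations in place of 9. Scaling by library size alone shifted the median over all genes, on the log2 scale, from -0.02 to 0.31 in BSCs against non-basal cells, from -0.09 to 0.29 in BSCs against alveolar cells, from -0.06 to 0.21 between the airway populations and from 0.01 to 0.19 in EpCAM-negative against alveolar cells. In BSCs the values of *Eln*, *Mfap4*, *Mfap5* and *Loxl1* rest on 0 to 9 reads a library.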
